A study of Mus musculus with 27 samples.

Results

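The messages of insulin-like growth factor 1, its receptors and the IGF-binding proteins were followed in mouse calvarial cells over 9 days of sampling. The 9 genes were taken as a list by name (Igf1, Igf1r, Igf2r, Igfbp2, Igfbp3, Igfbp4, Igfbp5, Igfbp6 and Igfbp7) out of the 37991 gene identifiers in each of the 27 profiles. No rule on their measured values was used, but the list was chosen with earlier results of these data known. All 9 were measured on every day and all 9 passed the filter on low counts. Cells came from the calvaria of neonatal C57BL/6J-Col3.6 CFP mice, and those bearing cyan fluorescent protein were sorted and then kept in medium with ascorbic acid and beta-glycerol phosphate, so that every day shared strain, sort and medium. Total RNA was sampled on days 2, 4, 6, 8, 10, 12, 14, 16 and 18. The labels number 3 replicates a day and the study describes triplicate samples, but the 3 files of a day carry the same barcode in 3 lanes. They were therefore counted here as 1 library a day, and errors over the 3 lanes were read as those of sequencing and quantification, which do not cover the spread between cultures. The fluorescent protein was driven by the Col3.6 promoter, a fragment of the collagen type I promoter, and the sort was therefore made on promoter activity before differentiation began. No separate undifferentiated or untreated control was among the samples.

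IGF1 is a secreted growth factor that acts through the receptor tyrosine kinase encoded by Igf1r, and bone cells both make it and respond to it. The product of Igf2r, also the cation-independent mannose 6-phosphate receptor, takes up IGF2 and carries it to lysosomes. The IGF-binding proteins hold IGFs outside the cell with an affinity close to that of the receptor, which can keep them from it or store them near it, while IGFBP7 is a relative that binds IGFs only weakly.

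Levels are given in TPM, a relative transcript abundance that is corrected for transcript length, after each profile was scaled to its upper quartile. Changes over time were tested by edgeR on estimated counts of the 9 libraries. The first test was for a straight line in day, expressed as the log2 change from day 2 to day 18, and the second was for any smooth course (a natural spline). Another fit grouped the days into early (days 2 to 6), middle (days 8 to 12) and late (days 14 to 18). In that fit the days of a stage stood in for replicates, so its errors hold the change within a stage. A step that was not called there therefore does not show that levels stayed the same. The calls were made at a Benjamini-Hochberg adjusted p under 0.05. Totals ranged from 22470195 counts on day 10 to 62009157 on day 12. Of the 81 comparisons of a member between the lanes of a day, 9 gave a chi-square p under 0.05, with a mean chi-square of 1.21 per degree of freedom. The smallest chi-square p was 0.000206 (Igfbp5 on day 18), or 0.0167 after Bonferroni correction for the 81 comparisons. On average the lanes thus differed little more than counting error allows, though that comparison went beyond it. The label of the cells as osteoblasts was set beside 10 osteoblast markers. Runx2 was at 42.0 to 65.7 TPM and Col1a1 at 1526 TPM or more on every day. Alpl, after an early high of 9.13 TPM, was at 0.47 to 1.45 TPM on days 4 to 8 and at 13.3 to 17.6 TPM late. Bglap, the osteocalcin gene, stayed at or below 1.88 TPM until day 10 and held 31.4 to 208 TPM late. By the line Runx2, Col1a1, Col1a2, Ibsp, Bglap, Dmp1 and Phex rose, while Sp7, Alpl and Spp1 were not called. The smooth course was called for all 10 markers. For Sp7 its fitted log2 change was -1.73 (adjusted p = 1.16e-05), with means of 13.7 TPM early, 4.36 TPM in the middle and 8.28 TPM late. Spp1 (adjusted p of the smooth course = 0.000421) had means of 798 TPM early, 393 TPM in the middle and 389 TPM late.

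By the line, 8 of the 9 genes changed, 6 upward and 2 downward. Igf1 and Igfbp2 to Igfbp6 rose, Igf1r and Igf2r fell, and Igfbp7 had no slope. Over all genes tested, 54.3% were called by the same test, 28.3% upward and 26.1% downward, so most of the transcriptome moved with day, and the median log2 change was 2.18 for the 9 genes and 0.05 for all genes. The smooth course was called for 9 of 9, against 57.5% of all genes. From the early to the middle days 7 of 9 changed, 5 upward (Igf1, Igfbp2, Igfbp3, Igfbp4 and Igfbp5) and 2 downward (Igf1r and Igfbp7), against 31% of all genes (17.3% upward and 13.6% downward). From the middle to the late days edgeR called none of the 9 genes and 0% of all genes, although 5 of the 9 and 16.3% of all genes had an unadjusted p under 0.05. DESeq2 called 3 of the 9 (Igf2r, Igfbp6 and Igfbp7) and 562 genes in all for those days.

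**Figure D1:**
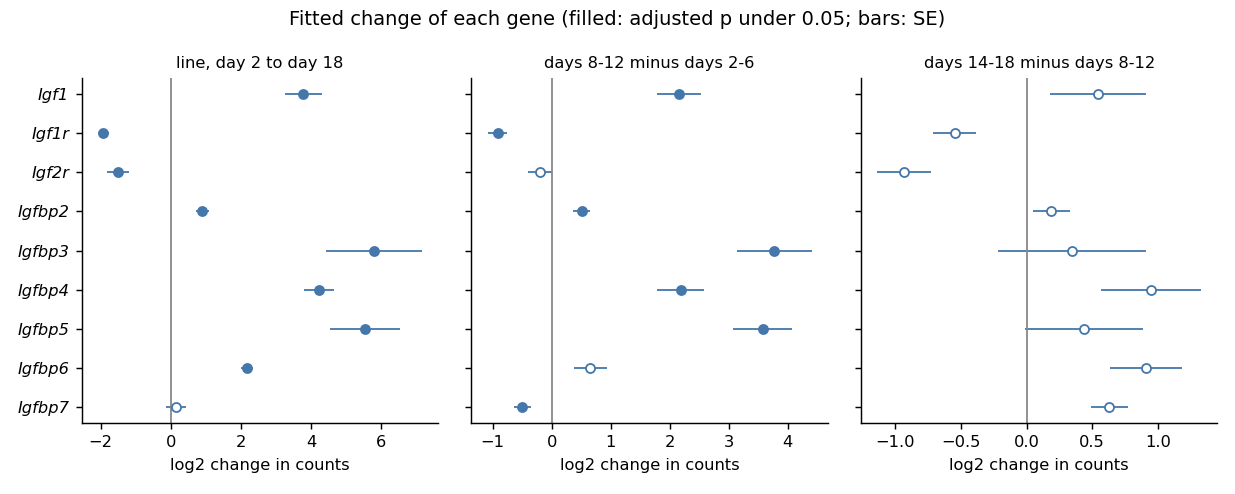
Fitted log2 change in counts of the 9 genes for the line from day 2 to day 18 (left), for days 8 to 12 minus days 2 to 6 (middle) and for days 14 to 18 minus days 8 to 12 (right). Points are edgeR estimates over 9 libraries, bars are standard errors and filled points had an adjusted p under 0.05; filled points lie on both sides of 0 in the left and middle panels and none is filled in the right panel.

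The 120 bases before the annotated start are shown for the 4 genes with the greatest rise and for the 2 receptor genes, which were the 2 that fell by the line, to set the starts of risen and fallen genes side by side. All 9 genes had an entry in the RefSeq promoter table (build GRCm38.p6), read in the direction of transcription. Capitals mark a TATA-type word (the word TATAAA and the related words TATATA and also TATTTA) or a GC box (GGGCGG), searched on both strands, and the words were picked after the sequences had been seen.
Igfbp3, chr11:7213924-7214043, minus strand: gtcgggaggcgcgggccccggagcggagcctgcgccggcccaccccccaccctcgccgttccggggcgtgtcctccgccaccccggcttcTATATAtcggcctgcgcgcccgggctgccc
Igfbp4, chr11:99041124-99041243, plus strand: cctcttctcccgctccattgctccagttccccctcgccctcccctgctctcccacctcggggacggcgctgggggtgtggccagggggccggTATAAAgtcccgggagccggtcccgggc
Igfbp5, chr1:72874866-72874985, minus strand: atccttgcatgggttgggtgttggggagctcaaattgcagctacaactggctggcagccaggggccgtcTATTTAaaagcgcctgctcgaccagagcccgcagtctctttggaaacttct
Igf1, chr10:87860991-87861110, plus strand: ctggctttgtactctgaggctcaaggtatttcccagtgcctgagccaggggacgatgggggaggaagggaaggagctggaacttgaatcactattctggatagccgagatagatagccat
Igf1r, chr7:67952137-67952256, plus strand: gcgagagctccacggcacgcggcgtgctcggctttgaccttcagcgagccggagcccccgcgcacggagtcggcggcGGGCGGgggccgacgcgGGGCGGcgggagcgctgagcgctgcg
Igf2r, chr17:12769707-12769826, minus strand: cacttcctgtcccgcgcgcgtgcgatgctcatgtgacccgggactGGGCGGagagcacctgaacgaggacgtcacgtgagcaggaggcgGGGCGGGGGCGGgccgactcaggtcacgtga
A TATA-type word began 30 bases before the start in Igfbp3, 28 in Igfbp4 and 51 in Igfbp5. Igf1r held 2 GC boxes and Igf2r 3, with no TATA-type word. Neither word followed the direction of change over all 9 genes, since Igfbp2, which rose, held 3 GC boxes and no TATA-type word at its upstream start, Igfbp6, which rose, had its TATA-type word 148 bases before the start, and Igfbp7, with no slope, held 4 GC boxes. Igf1 had neither word in the window, which says only that those letters are missing there. Among 32851 promoters of the same table, 25.8% held a TATA-type word and 35.7% a GC box somewhere in the 300 bases from 250 before to 50 after the start, so both words are common. CpG dinucleotides numbered 48 in that window of Igf1r, 34 in Igf2r, 37 in Igfbp3, 27 in Igfbp4, 10 in Igfbp5 and 6 in Igf1, against a median of 7 over all promoters. The rising genes therefore included CpG-rich promoters (Igfbp3 and Igfbp4) and promoters near the median (Igf1 and Igfbp5).

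Igf1 (ENSMUSG00000020053, NCBIM37 chr10:87321010-87399792, plus strand) was the most abundant of the 9 genes, with rank 134 by mean TPM. Listed in order of day, its level was 108 ± 11.3 (SD over 3 lanes), 210.0 and 329 TPM on the early days, 472, 781 and 1043 TPM on the middle days, and 1177, 1045 and 1206 ± 13.5 TPM on the late days. In TPM it thus rose over each of the first 6 intervals and varied little after, and days 12 and 16, and days 14 and 18, did not differ beyond their lane SDs. In CPM (counts relative to the library total, with no correction for length) it went up over every interval, from 1222 at day 12 through 1315 and 1370 to 1554 at day 18, while the assigned transcript length was 2080 bases on day 14 and 2441 on day 16. The late levelling was therefore seen in TPM and not in CPM. The early range lay below the others, while the middle and late ranges met within lane SD, at 1043 TPM on day 12 and 1045 TPM on day 16. The fitted line rose by 3.78 (SE = 0.52, adjusted p = 0.000223). The step from early to middle days was 2.16 (SE = 0.38, adjusted p = 0.0058), and that from middle to late days was 0.55 (SE = 0.37, adjusted p = 0.47). Day 18 stood 11.2-fold above day 2 in TPM and 13.7-fold in CPM, while the mean transcript length assigned to Igf1 went from 1822 to 2410 bases.

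**Figure D2:**
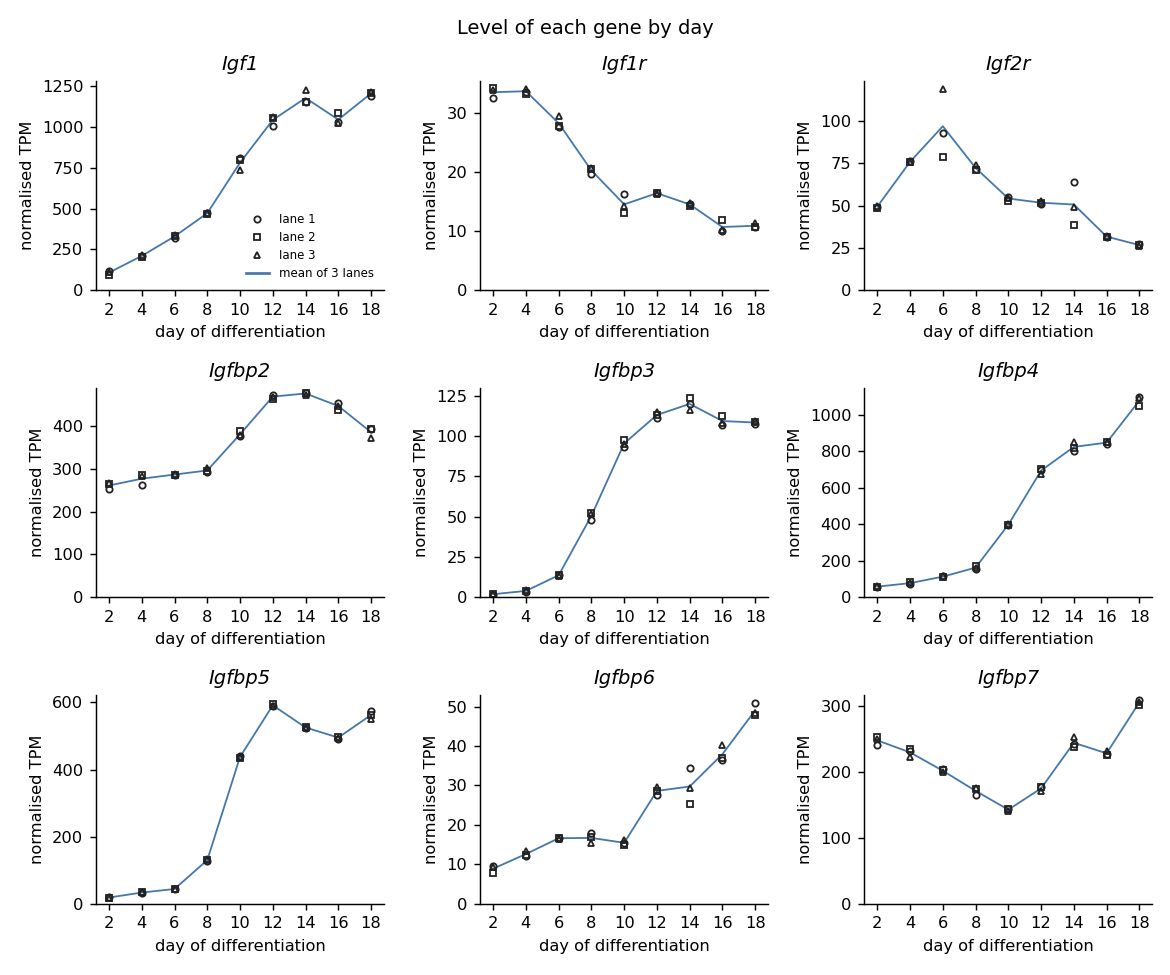
Upper-quartile normalised TPM of each gene (vertical axes, each from 0) against day of differentiation; symbols are the 3 lanes of 1 library per day and the line joins their means. Igf1 rose from 108 to 1206 TPM, Igf1r fell from 33.5 to 10.9, Igf2r peaked on day 6, and Igfbp7 had its lowest level, 143 TPM, on day 10.

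The receptor of IGF1 moved the other way. Igf1r (ENSMUSG00000005533, chr7:75097713-75371484, plus strand) was at 33.5, 33.6 and 28.2 TPM on days 2, 4 and 6, at 20.2, 14.5 and 16.4 TPM on days 8, 10 and 12, and at 14.5, 10.7 and 10.9 TPM on days 14, 16 and 18. The early range lay above the others. The lowest middle day (day 10) and the highest late day (day 14) both stood at 14.5 TPM, so the middle and late ranges met within lane SD. The days that did not differ beyond lane SD were 2 and 4, 10 and 14, and 16 and 18. The line fell by 1.92 (SE = 0.15, adjusted p = 1.9e-05), and the early to middle step fell by 0.92 (SE = 0.17, adjusted p = 0.00628). With rank 5052 by mean TPM it was the least abundant of the 9 genes. Insr, the insulin receptor that can pair with the IGF1 receptor in hybrid form, stayed between 9.31 and 11.8 TPM, with a line of 0.01 (SE = 0.10, adjusted p = 0.955). The ratio of Igf1r to Insr messages accordingly went from 3.60 on day 2 to 0.934 on day 18.

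Igf2r (ENSMUSG00000023830, chr17:12875272-12962530, minus strand) went up before it went down. In CPM, which do not depend on the assigned transcript length, it held 292, 434 and 454 on the early days, 429.5, 314 and 256 on the middle days and 203, 165 and 139 on the late days, in order of day. Days 4 to 8 were thus the high days and days 16 and 18 the lowest. The line fell by 1.49 (SE = 0.31, adjusted p = 0.00241), the smooth course had an adjusted p of 8.98e-07, and the early to middle step was -0.20 (SE = 0.20, adjusted p = 0.485). On days 2 to 10 alone the line, scaled to the same 16 days, was 0.15 with an adjusted p of 0.869, so the fall rested on the later days. TPM of Igf2r was unsteady between lanes on 2 days. On day 14 the lanes held 3015, 3129 and 3028 counts but 64.0, 38.6 and 49.2 TPM, with assigned lengths of 5395, 8887 and 6811 bases. On day 6 they held 6340, 6657 and 6580 counts, 92.8, 78.8 and 119 TPM, and lengths of 7411, 8836 and 5920 bases. Lanes with equal counts therefore differed in TPM where the assigned length differed, and on the other 7 days the lane SD was at most 2.23% of the mean.

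Among the binding proteins, Igfbp3 (ENSMUSG00000020427, chr11:7106089-7113926, minus strand), the main carrier of IGFs in blood, had the greatest relative rise. Its early levels were 1.73 ± 0.356, 3.77 and 13.5 TPM, its middle levels 50.5, 95.5 and 113 TPM, and its late levels 120.1, 109 and 109 ± 1.05 TPM. The steepest interval was from day 6 to day 8 (3.74-fold), and the early days did not overlap the rest. The day 2 value rests on 108 counts, or 2.55 CPM (95% Wilson interval 2.12 to 3.08, counting error only). The line was 5.79 (SE = 1.37, adjusted p = 0.00489) and the early to middle step 3.77 (SE = 0.63, adjusted p = 0.00526), while the middle to late step was 0.35 (SE = 0.56, adjusted p = 0.782). Igfbp1, whose annotated position lies 3539 bases from that of Igfbp3, had 0 counts on every day, which allows at most 0.134 CPM at the depth of day 10.

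Igfbp5 (ENSMUSG00000026185, chr1:72904506-72921458, minus strand), a binding protein that also attaches to bone matrix, rose later. It stood at 18.6, 33.5 and 44.0 TPM through the early days, at 130.2, 438 and 592 TPM through the middle days, and at 525, 495 and 563 TPM through the late days. The steepest interval was from day 8 to day 10 (3.36-fold), day 12 was the highest day, and no neighbours in the order of levels came within their lane SDs. The line was 5.54 (SE = 1.01, adjusted p = 0.00105) and the early to middle step 3.57 (SE = 0.50, adjusted p = 0.00412). Igfbp2 (ENSMUSG00000039323, chr1:72871077-72899048, plus strand) lies 5457 bases from it on the opposite strand and had a different course. Igfbp2 messages were at 261, 277 and 287 TPM early, at 297, 381 and 469.7 TPM in the middle and at 477, 448 and 386 TPM late, again in order of day. Igfbp2 was thus abundant from the start and its highest day stood 1.83-fold above its lowest, against 31.8-fold for Igfbp5. Its line was 0.90 (SE = 0.19, adjusted p = 0.00227). Its early to middle step was 0.51 (SE = 0.14, adjusted p = 0.0249), a call that was lost when day 2, 4, 10 or 12 was left out (adjusted p = 0.0708 to 0.101).

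Igfbp4 (ENSMUSG00000017493, chr11:98902558-98913969, plus strand), which binds IGFs until it is cut by PAPP-A, rose over 8 of 8 intervals. From 56.8, 76.2 and 112 TPM on days 2, 4 and 6 it went to 161, 397 and 695 TPM on days 8, 10 and 12 and to 825, 848 and 1079 ± 26.7 TPM on days 14, 16 and 18. Days 14 and 16 did not differ beyond lane SD, and the 3 stages did not overlap. The line was 4.23 (SE = 0.42, adjusted p = 4.75e-05) and the early to middle step 2.19 (SE = 0.40, adjusted p = 0.00626). The size of its rise depended on the unit. Day 18 stood 19.0-fold above day 2 in TPM and 11.5-fold in CPM, while the assigned transcript length went from 3503 to 2504 bases. Length was not the whole of that gap. Igfbp6, assigned 1112 bases on every day, rose 5.51-fold in TPM and 4.84-fold in CPM. The estimated counts of Igfbp4 were exactly whole (no tolerance) in 22.2% of the 27 profiles, against 100% for each of the other 8 genes, and the largest distance from a whole number was 0.4 of a count, so an unknown number of its reads was divided with other transcripts.

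Igfbp6 (ENSMUSG00000023046, chr15:101974793-101979942, plus strand), which prefers IGF2, was low and rose late. The early libraries held 8.91, 12.6 and 16.6 TPM of it, the middle libraries 16.7, 15.5 and 28.6 TPM and the late libraries 29.7, 37.9 and 49.1 TPM. Days 6 and 8, and days 12 and 14, did not differ beyond lane SD, and the early and middle ranges overlapped. The line was 2.18 (SE = 0.18, adjusted p = 2.12e-05), whereas the early to middle step was 0.65 (SE = 0.28, adjusted p = 0.0989) and the middle to late step 0.91 (SE = 0.27, adjusted p = 0.21).

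Igfbp7 (ENSMUSG00000036256, chr5:77778265-77837070, minus strand) went down and came back. In order of day it was found at 248, 229.7 and 202 TPM early, at 171, 143 and 175 TPM in the middle, and at 244, 228 and 305 TPM late. The middle days lay below both the early and the late days without overlap. The line was 0.15 (SE = 0.28, adjusted p = 0.681) and the smooth course had an adjusted p of 0.0012. Without day 18 the line was -0.23, and on days 2 to 10 alone, scaled to 16 days, it was -1.60 with an adjusted p of 0.00242. The early to middle fall of 0.50 (SE = 0.14, adjusted p = 0.0262) was lost when day 2, 4, 10 or 12 was left out (adjusted p = 0.069 to 0.0972). Of its 1213 exonic bases, 85 also lie in exons of Polr2b on the opposite strand, and no source used here states that the libraries kept strand.

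The sum of the 6 binding protein messages was 595 ± 17.4 TPM at day 2 and 2491 ± 37.3 TPM at day 18, a ratio of 4.19, and its make-up changed. On day 2 Igfbp2 made up 43.9% and Igfbp7 41.6% of the sum, with 9.55% from Igfbp4, 3.12% from Igfbp5, 1.50% from Igfbp6 and 0.29% from Igfbp3. On day 10 Igfbp5 was first with 29.8%, followed by Igfbp4 with 27.03% and Igfbp2 with 25.9%. From day 12 on Igfbp4 was first, reaching 43.3% on day 18, when Igfbp5 held 22.6%, Igfbp2 15.5% and Igfbp7 12.3%. Igfbp2 and Igfbp7 thus led the sum until day 8, and Igfbp4 and Igfbp5 led it from day 12. The shares depend on the assigned lengths, and that of Igfbp4 went from 3503 bases on day 2 to 2504 on day 18.

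Per Igf1 message the sum was 5.53, 3.01 and 2.05 on the early days and 1.75 at day 8, and then stayed between 1.88 and 2.07. Until day 8 Igf1 therefore rose faster than the sum, which Igfbp2 and Igfbp7 dominated, although Igfbp3 and Igfbp5 each rose by a larger factor than Igf1. Igf2, the other ligand and an imprinted growth factor, was more abundant than Igf1 on every day, with 1048 TPM at day 2, 705 TPM at day 6 and 3368 TPM at day 18. The ratio of Igf2 to Igf1 messages was 9.73 on day 2, 1.93 on day 8 and 2.79 on day 18. With both ligands in the denominator the sum stayed between 0.46 and 0.662 binding protein messages per ligand message. Igf1 per Igf1r message went from 3.22 to 111. These are ratios of messages in TPM, described without a test, and protein was not measured. They depend on the assigned lengths, which rose for Igf1 (1822 to 2410 bases) and fell for Igfbp4 (3503 to 2504 bases) from day 2 to day 18.

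**Figure D3:**
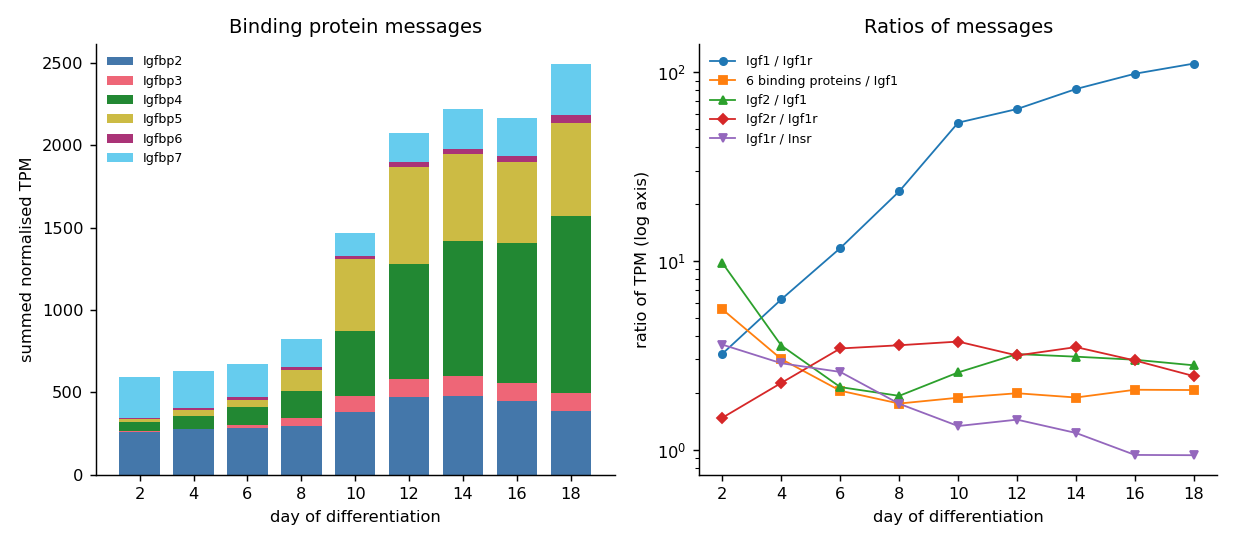
Left, stacked bars of the normalised TPM of the 6 binding protein genes by day, from 0. Right, ratios of TPM by day on a log axis: Igf1 per Igf1r climbed from 3.22 to 111 and Igf1r per Insr fell to 0.934. The 6 binding proteins per Igf1 stayed between 1.88 and 2.07 from day 10 on.

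Markers of other cells rose in the same libraries. The summed monocyte and macrophage markers (7 genes, led by Lyz2) were at 24.1 to 61.7 TPM on the early days. They reached 68.1 to 451 TPM on the middle days and 522 to 2014 TPM on the late days. By the line 6 of the 7 rose, against 28.3% of all genes. The summed adipocyte markers (5 genes, Adipoq, Fabp4, Plin1, Cfd and Pparg) were at 3.21 to 7.44, 6.51 to 103 and 188 to 407 TPM, and 5 of 5 rose. Among them Cfd had 0 counts on days 4 and 10, while no macrophage marker was at 0 on any day. The 10 osteoblast markers summed to 3001 to 5280, 6026 to 8459 and 7644 to 9330 TPM, and 7 of 10 rose by the line. Most of that sum was Col1a1 and Col1a2, with late means of 3948 and 3908 TPM, so it says little of the other 8 markers. Spp1 had a mean of 798 TPM early and 389 TPM late, and Sp7 13.7 and 8.28 TPM. Endothelial markers (5 genes) summed to 12.1 TPM at most, with Pecam1 at or below 0.34 TPM and Emcn at or below 0.15. Of the 3 that could be tested by the line, Tek rose by 2.97 (adjusted p = 0.00687) to at most 8.95 TPM and Cdh5 by 1.91 (adjusted p = 0.00887) to at most 3.13 TPM, while Kdr fell by 3.27 (adjusted p = 0.0249). Of the 5 skeletal muscle markers, Myf5 and Ckm were at 0 on every day, Myod1 and Myog were at 0.04 TPM at most, and Acta1 fell by 5.91 (adjusted p = 0.000157), from 13.8 TPM at day 4 to 0.39 at day 18. The part of these markers in the rise of Igf1 and the binding proteins was not tested, and in bulk RNA a change in the number of cells of a type and a change of message per cell cannot be told apart.

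On the days with lower marker sums the values were as follows. Between days 2 and 8 Igf1 went from 108 to 472 TPM and Igfbp3 from 1.73 to 50.5 TPM, while the adipocyte sum was 7.44 TPM on day 2 and 6.51 on day 8 and the macrophage sum went from 24.1 to 68.1 TPM. On day 10 the adipocyte sum was 19.8 TPM and the macrophage sum 190 TPM. On days 2 to 10 alone 7 of the 9 genes were called by the line, against 31.4% of all genes. That alternative was chosen after the markers had been seen. Scaled to the same 16 days, the line was then 6.33 for Igf1 (adjusted p = 0.00021), 12.3 for Igfbp3 (adjusted p = 0.000199), 8.89 for Igfbp5 (adjusted p = 0.00116), 5.05 for Igfbp4 (adjusted p = 0.00213) and -2.50 for Igf1r (adjusted p = 0.00271). Igfbp6 at 1.61 (adjusted p = 0.0586) and Igf2r at 0.15 were not called on those days.

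**Figure D4:**
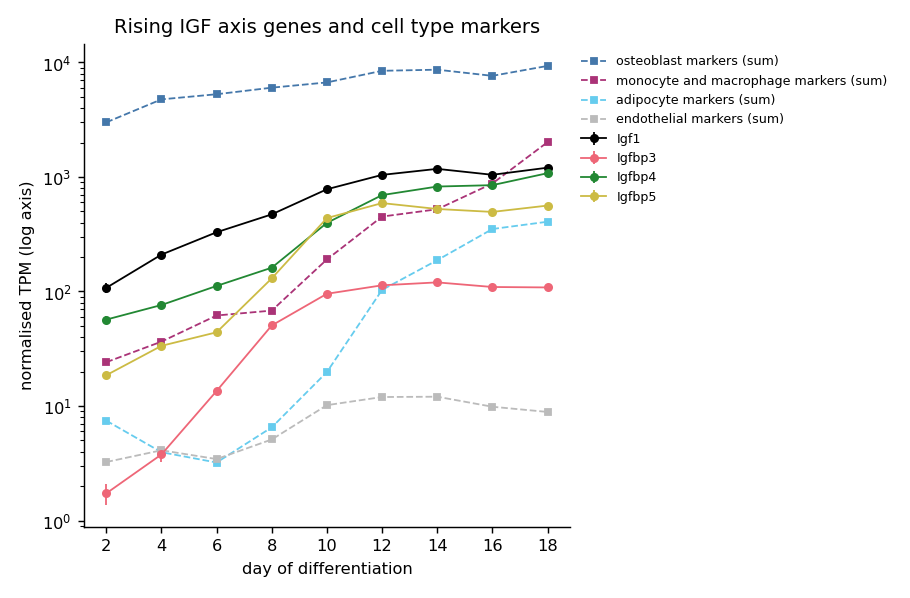
Normalised TPM (log axis) of Igf1, Igfbp3, Igfbp4 and Igfbp5 by day (solid lines, mean and SD over 3 lanes) beside the summed TPM of 4 marker lists (dashed lines). Igf1 was at 472 TPM by day 8, when the adipocyte sum was 6.51 TPM and the macrophage sum 68.1 TPM. On day 10 these sums were 19.8 and 190 TPM, and both were highest on day 18.

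Of the 6 genes whose proteins cut the binding proteins or guard them from being cut, 4 rose and 1 fell by the line. The shares over all genes were 28.3% upward and 26.1% downward. Pappa2, a protease of IGFBP3 and IGFBP5, rose by 2.34 (SE = 0.34, adjusted p = 0.000291), and the serine protease gene Htra1 by 3.52 (SE = 0.26, adjusted p = 1.3e-05). Stc1 and Stc2, the stanniocalcins that inhibit the pappalysins, rose by 3.60 (SE = 0.27, adjusted p = 1.25e-05) and 1.82 (SE = 0.66, adjusted p = 0.0372), although Stc2 never passed 1.88 TPM. Pappa, the protease of IGFBP4, fell by 1.03 (SE = 0.35, adjusted p = 0.0307), with 78.5 TPM at day 4 and 26.4 TPM at day 10, while Igfbp4 rose. Adam12 was at 87.3 to 109 TPM and its line was -0.05 (SE = 0.12, adjusted p = 0.732). Igfals, whose product joins IGFBP3 or IGFBP5 and an IGF in a ternary complex, had 0 counts at day 2 and 5.79 TPM at day 18 (line called, adjusted p = 0.000131).

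The growth hormone axis, the main inducer of Igf1 in liver, had 5 of 6 genes up and 1 down by the line. Over all genes 28.3% rose and 26.1% fell. Ghr, the growth hormone receptor, dipped from 47.0 TPM (day 2) to 31.8 TPM (day 4) before it reached 144 TPM (day 18), a line of 1.99 (SE = 0.26, adjusted p = 0.000162). Socs2, a feedback inhibitor of that receptor, went from 16.5 to 67.6 TPM (line 2.43, SE = 0.22, adjusted p = 2.81e-05), and Cish, Stat5a and Stat5b rose by 1.02, 0.64 and 0.85. The kinase gene Jak2 fell by 0.41 (SE = 0.10, adjusted p = 0.00546).

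Behind the receptor, genes went in both directions. Of 10 substrates and adaptors 9 were tested, and 3 rose, 2 fell and 4 were not called, with a median line of 0.05, as over all genes. Irs1, the docking protein of the IGF1 receptor, rose by 1.61 (SE = 0.39, adjusted p = 0.00554) with 26.2 TPM at day 2 and 86.2 TPM at day 12, whereas Irs2 stayed between 2.53 and 4.32 TPM (line 0.05, SE = 0.24, adjusted p = 0.87). Grb10, an adaptor that restrains the receptor, was the most abundant of the list at 304 to 480 TPM and was not called by the line (adjusted p = 0.456). Its smooth course was called (adjusted p = 0.00476), with means of 376 TPM early, 435 TPM in the middle and 364 TPM late. Of the 19 genes from PI3K to FOXO, 8 rose and 6 fell, where 28.3% of all genes rose and 26.1% fell. Among them Pik3r1, a regulatory subunit of PI3K, rose by 2.38 (SE = 0.17, adjusted p = 1.1e-05) and Foxo1 by 1.27 (SE = 0.15, adjusted p = 0.0001), whereas Pik3cb fell by 2.06 (SE = 0.22, adjusted p = 7.12e-05) and Mtor by 0.57 (SE = 0.12, adjusted p = 0.00204). Of the 4 mannose 6-phosphate genes, Gnptg and Nagpa rose by 1.89 and 1.30. M6pr, the smaller mannose 6-phosphate receptor, fell by 0.76 (SE = 0.19, adjusted p = 0.0069), with a step of -0.62 from early to middle days (adjusted p = 0.00976) and 0.04 after (adjusted p = 0.891), whereas the 2 steps of Igf2r were -0.20 and -0.93, neither of them called.

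**Figure D5:**
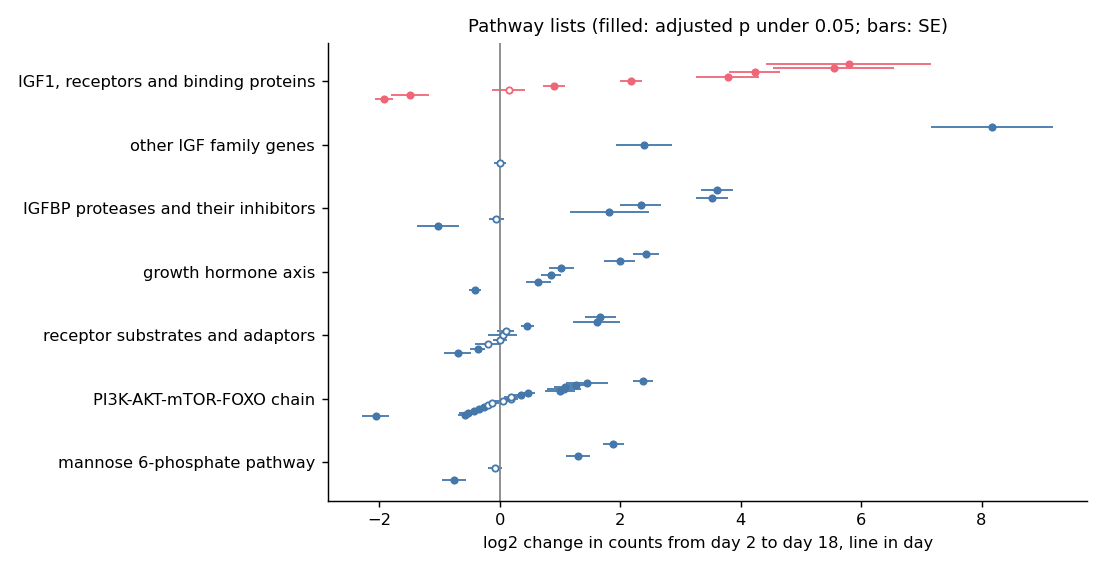
Log2 change in counts from day 2 to day 18 (line in day, edgeR, 9 libraries) of each tested gene in 7 lists; bars are standard errors and filled points had an adjusted p under 0.05. The growth hormone axis had 5 of 6 genes to the right of 0 and called. The list from PI3K to FOXO had 8 called to the right and 6 to the left. Over all genes 28.3% were called upward and 26.1% downward.

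The genes whose course over the 9 days was most like each member were taken from the 7656 genes with a mean of at least 10 TPM, by Pearson correlation of log2(TPM + 1), a description over 9 libraries that share depth and day. Igf1 was most like Dcn (r = 0.999), the gene of the matrix proteoglycan decorin, and Col1a2 (r = 0.999), and Igfbp4 most like Prelp (r = 0.998) and Serping1 (r = 0.998). Igfbp3 was nearest to Arhgap28 and Itm2a, Igfbp5 to Abca9 and Kbtbd7 (r = 0.997 for all 4), and Igf1r to Kctd5 (r = 0.996) and Ptpn14 (r = 0.993). Such company was common: 1245 genes had r over 0.9 with Igf1 and 1037 with Igf1r. The courses of Igfbp7 and Igf2r were shared by fewer genes, with 12 and 39 over 0.9. Igfbp7 was most like the phosphate transporter gene Slc20a2 (r = 0.965) and Serpinf1 (r = 0.96), and Igf2r most like Sugp2 (r = 0.961) and Raet1d (r = 0.958). Igfbp2 was nearest to Ube2h (r = 0.993) and Ccdc90b (r = 0.988), and Igfbp6 to Slc38a10 (r = 0.991) and Ggh (r = 0.989).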

How the data were processed

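RNA sequencing profiles of 9 days of osteoblast differentiation, 3 lanes a day, were analysed. The authors aligned reads to the NCBIM37 transcriptome with Bowtie 0.12.9 and quantified genes with RSEM 1.2.8 per the labels; the methods name another release. The authors deposited RSEM expected counts (estimated counts, not normalized). They also deposited TPM, for which RSEM divides by an effective transcript length averaged over isoforms; here the authors' TPM were checked to have the same sum in every profile. The deposited FPKM use the same length and served as an alternative only. The lengths deposited by the authors are RSEM means in bases.

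Lane counts of a day were summed and rounded to whole numbers, giving 9 libraries, because the lanes carry 1 barcode. Correlations of lane deviations averaged 0.00343 for equal and -0.00172 for different replicate numbers, so the numbers do not pair samples. The quasi-likelihood test of edgeR 4.0.16 (R 4.3.3) was used, with upper-quartile scaling, a minimum count of 10 in filterByExpr and Benjamini-Hochberg adjustment at 0.05. The fits were also run on simulated counts with straight-line changes and less spread than the line and stage fits estimated here. That run therefore does not show how those fits perform at the spread of these data. A spline had 3 degrees of freedom. Each profile's TPM were scaled so that the upper quartile of its nonzero values equalled the mean upper quartile of all profiles. Symbols and positions came from the GENCODE annotation of NCBIM37. The alternatives were TMM factors, DESeq2 1.42.0, other filters, 27 separate lanes, left-out lanes and days, TPM and FPKM as deposited; days 2 to 10 alone and CPM were added after the data were seen. Members, gene lists and tests were chosen with earlier results of these data known. Every gene of the lists could be named, with counts for the whole list, and for each gene of the IGF list the 2 with the most similar course.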

Additional observations from a re-analysis of the deposited data

How the results depend on the processing

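The calls of Igf1, Igf1r, Igfbp3, Igfbp4 and Igfbp5 by the line, the smooth course and the early to middle step held under every alternative run. Of 917 recomputed values 850 gave the same answer. That meant the same sign and call (the call alone for the smooth course), a count within 1.5 times or a level within 1 SD. Alternatives that left out or separated lanes used the same libraries, so they do not cover the spread between cultures. The line called 4780 genes on days 2 to 10 against 8510, with 5 libraries in place of 9. There Igf2r turned from -1.49 to 0.15, which was not called, and Igfbp7 from 0.15 to -1.60, which was called. With a single day left out the line of Igfbp7 ranged from -0.23 (without day 18) to 0.46 and was called in no case. The early to middle step called 4848 genes, 9559 with 27 lanes as separate samples, and 2142 (without day 10) to 6252 when a day was left out. The middle to late step called 0 genes, 562 by DESeq2 and 5630 with 27 lanes, and 0 to 353 (without day 12) with a day left out; of the 9 IGF axis genes it called 3 by DESeq2, 6 with 27 lanes and 0 to 1 (Igf2r, without day 12). With the replicate number as a block over the 27 lanes, the counts were 9561 genes for early to middle, 5419 genes and 5 of the 9 for middle to late; lanes of 1 library are no biological replicates. Other causes were not tested. With 1 library a day, changes between single days cannot be separated from culture differences.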
